A study of Mus musculus with 22 samples.

Results

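The genes Pcsk1, Cpe, Scg5, Chga, Chgb, Scg2, Resp18, Calca and Gabra2 were followed in sorted mouse lung epithelial cells (ECs) across 3 genotypes, at steady state and after house dust mite (HDM) allergy. They are 9 of the 21793 protein-coding genes listed in the deposited tables. Pcsk1, Resp18 and Gabra2 were selected on their measured levels, which differ between the libraries labelled CYP1B1-/- and those labelled WT, and the other 6 genes were joined to them as members of the same pathway. Every level in the libraries labelled CYP1B1-/- or WT is therefore a description for Pcsk1, Resp18 and Gabra2, and the comparison of CYP1B1-/- with WT carries no test for any of the 9 genes. Some of the other 6 genes follow these closely over the 22 libraries (Pearson's r = 0.951 for Calca with Resp18 and 0.886 for Scg5 with Pcsk1). Their tests in WT and CYP1B1-/- libraries are therefore not independent of the choice.

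Neuroendocrine cells make peptide hormones as larger precursors, which are sorted into dense-core granules, cut by proprotein convertases, trimmed at their ends and released when the cell is stimulated. Granins are acidic proteins that help to build these granules. In the lung, rare pulmonary neuroendocrine cells of the airway epithelium store calcitonin gene-related peptide (CGRP) and other mediators, and they are known for sensing the airway content and for signalling to nerves and immune cells. GABA, the inhibitory transmitter of the brain, is also used by these cells.

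The libraries held RNA of live CD45-EpCAM+ singlets from digested lungs of adult C57BL/6 WT mice and of AhR-/- and CYP1B1-/- mice backcrossed to that strain. AhR, the aryl hydrocarbon receptor, regulates transcription once a ligand is bound, and CYP1B1 is a metabolising enzyme among its target genes. Both deletions are germline, so they affect all cells of the animal and not ECs alone. The steady-state groups, from naive mice, had 4 WT, 3 AhR-/- and 3 CYP1B1-/- libraries, and the HDM groups, from mice sensitized and challenged through the nose with extract of Dermatophagoides farinae, had 4 libraries of each genotype. Each state was deposited as a table of its own, so state and sequencing run cannot be told apart. The same holds for state and the sex of the mice, as far as reads of Y-linked genes show it, in WT and CYP1B1-/-. No source states how many animals gave 1 library, so the p-values measure the spread between libraries.

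Total counts ranged from 10476829 to 17707000 per library at steady state and from 9654825 to 17878442 after HDM. A single predicted gene, Gm10800, took 9.54% to 29.2% of the counts at steady state and 0.00819% to 71.9% after HDM, which left an unequal depth for all other genes. On normalized library sizes 3 counts stood for 0.138 to 0.213 CPM (counts scaled to a common library size) at steady state and for 0.107 to 1.36 CPM after HDM, the highest of these in AhR-/- replicate 3. At steady state Ahr had 15.5 to 20.1 CPM under the label AhR-/- and 6.38 to 12.3 CPM under WT, and Cyp1b1 had 3.62 to 5.89 CPM under CYP1B1-/- and 0.644 to 1.91 CPM under WT, so neither targeted gene was lower in the libraries labelled with its knockout, nor was its mean after HDM. The counts cover whole genes, so a transcript that lacks some exons still adds to them. The groups are therefore named below by their labels. The sum of 3 genes linked to C57BL/6 substrains was 8.41 to 11.6 CPM in WT, 10.9 to 45.5 CPM in AhR-/- and 11.2 to 13.9 CPM in CYP1B1-/- libraries at steady state. After HDM it was 7 to 13 CPM, 20.5 to 44.4 CPM and 7.25 to 13.3 CPM in the same order. Whether the lines differ in genetic background beyond the targeted genes was not tested. Y-linked genes had 939 to 4655 counts in the 10 steady-state libraries, 379 and 1081 counts in AhR-/- replicates 3 and 4 after HDM, and at most 7 counts in each other HDM library, so every WT and CYP1B1-/- comparison of the states, and the interaction, sets libraries with many Y-linked reads against libraries with few or none.

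The upstream bases of the genes were read first, since several granule genes are known to carry a cAMP response element, the site of the CREB family of transcription factors. RefSeq start sites (GRCm38.p6) were found for 8 of the 9 genes, all but Cpe. In the 250 bases before the start, the letters TGACGT, or their reverse complement ACGTCA, were present in 5 of these 8 genes and in 6.46% of all 32817 windows searched. The full palindrome TGACGTCA, which contains both forms of the shorter word, was present in 3 of the 8 genes and in 1.55% of all windows. The stretches that hold the match are shown so that the letters can be read in these 5 genes, and no other motif was searched. They are written 5′ to 3′ on the strand of the gene, with the match in capitals:
Pcsk1: ccaggtagatcTGACGTCAagagatggctt
Chgb: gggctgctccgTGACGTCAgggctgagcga
Scg2: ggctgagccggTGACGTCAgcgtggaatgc
Chga: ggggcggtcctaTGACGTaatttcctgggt
Scg5: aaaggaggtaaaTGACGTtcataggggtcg

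The Pcsk1 stretch lies on the plus strand at chr13:75089768-75089797, with the first capital 78 bases before the start, and the Pcsk1 window holds 1 further match of the shorter word, which is not shown. The Chgb stretch lies on the plus strand at chr2:132781559-132781588, 72 bases before the start, and the Scg2 stretch on the minus strand at chr1:79440076-79440105, 68 bases before it. Both of these lie inside the gene spans of GENCODE M21 given below, which begin farther upstream than the RefSeq starts used here. For Chga the stretch is on the plus strand at chr12:102554885-102554914, 44 bases before the start. The match of Scg5 is farther away, 175 bases before the start, on the minus strand at chr2:113829249-113829278. The windows of Calca, Resp18 and Gabra2 did not hold these letters. Such a match describes the sequence only, and binding was not measured in these ECs.

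Levels are compared between genes as FPKM, which is CPM divided by the exon length in kilobases. In WT ECs at steady state Resp18 had the highest mean, 6.56 ± 0.57 FPKM (SD, n = 4), followed by Calca with 4.76 ± 0.266. Gabra2 at 3.03 ± 0.63 and Pcsk1 at 2.71 ± 0.508 did not differ beyond their spread, nor did Pcsk1 and Scg5, at 2.02 ± 0.197. Cpe was at 1.13 ± 0.128, Chgb at 0.766 ± 0.0898, Scg2 at 0.53 ± 0.174 and Chga at 0.222 ± 0.0854 FPKM, and of these neighbours Chgb and Scg2 overlapped in their spread. After HDM the order in AhR-/- ECs was Resp18 (21.4 FPKM), Calca (17.8), Scg5 (4.87), Pcsk1 (3.19), Gabra2 (2.16), Cpe (1.67), Scg2 (1.48), Chgb (0.897) and Chga (0.409). The granins, the best known markers of neuroendocrine granules, had the 3 lowest means in these groups, and Chga rested on 8 to 14 counts in the 4 WT libraries at steady state. Levels of the 9 genes are averages over all sorted ECs, and in such bulk RNA fewer cells of a type and less RNA per cell cannot be told apart.

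**Figure D1:**
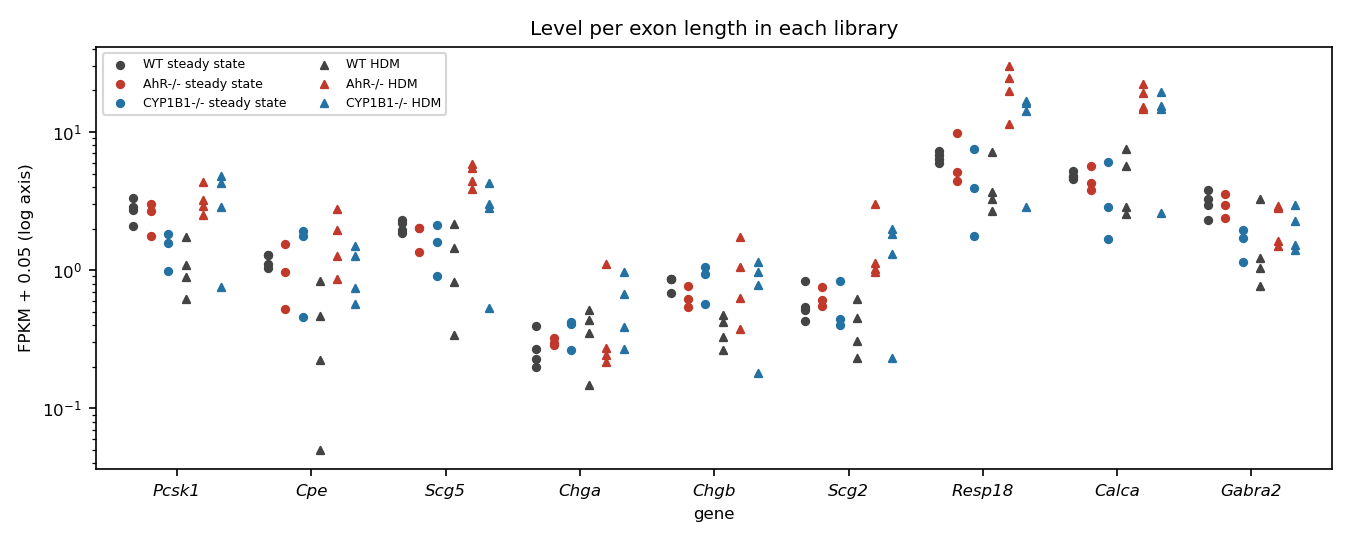
Level of each gene in each of the 22 libraries as FPKM with 0.05 added, on a log axis; circles are steady-state and triangles HDM libraries, in grey for WT, red for AhR-/- and blue for CYP1B1-/-. Resp18 and Calca have the highest group means and the red triangles of Resp18 (11.3 to 29.9 FPKM) and Calca (14.7 to 22.3 FPKM) stand above the grey ones.

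The neuroendocrine label was read against other markers of that cell type. Uchl1 and Syp, a neuronal ubiquitin hydrolase and a vesicle membrane protein that are used as markers of these cells, were near the detection limit, at 0.135 to 1.44 CPM and at 0 to 1.62 CPM. The summed level of 18 neuroendocrine markers outside the 9 genes was 54.4 to 78.0 CPM over the steady-state libraries and after HDM 69.1 to 94.6 CPM in AhR-/-, 32.6 to 48.2 CPM in WT and 27.4 to 64.3 CPM in CYP1B1-/- libraries. After HDM the AhR-/- libraries were thus all above the WT libraries for this sum. Markers of neurons and glia, which also use these granules, summed to 7.4 to 13.5 CPM at steady state and to 4.87 to 25.9 CPM after HDM. The cell source of the transcripts was not tested.

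At steady state the libraries labelled AhR-/- and WT held these genes at like levels, and the libraries labelled CYP1B1-/- had less Pcsk1 and Gabra2. After HDM all 9 genes had a higher fitted mean in AhR-/- than in WT ECs, which is a description for Pcsk1, Resp18 and Gabra2. Among the 6 genes tested there, Calca and Scg5 were called higher, as 9.22% of all genes were. Both calls were lost with a hematopoietic covariate, without AhR-/- replicates 3 and 4, and without any 1 of 6 libraries. Scg5 was also lost without AhR-/- replicate 2. From steady state to HDM, 3 of 9 genes (Calca, Resp18 and Scg5) were called higher in AhR-/- ECs, where 10.6% of all genes were. In CYP1B1-/- ECs 1 of 6 was called higher (Calca), where 15.5% of all genes were. In WT ECs 1 of 6 was called lower (Cpe), where 19.4% of all genes were. Of these, Calca in AhR-/- was called in all 17 settings tried, Resp18 in 14 and Scg5 in 10, Calca in CYP1B1-/- in 15 of 16 and Cpe in WT in 13 of 17.

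**Figure D2:**
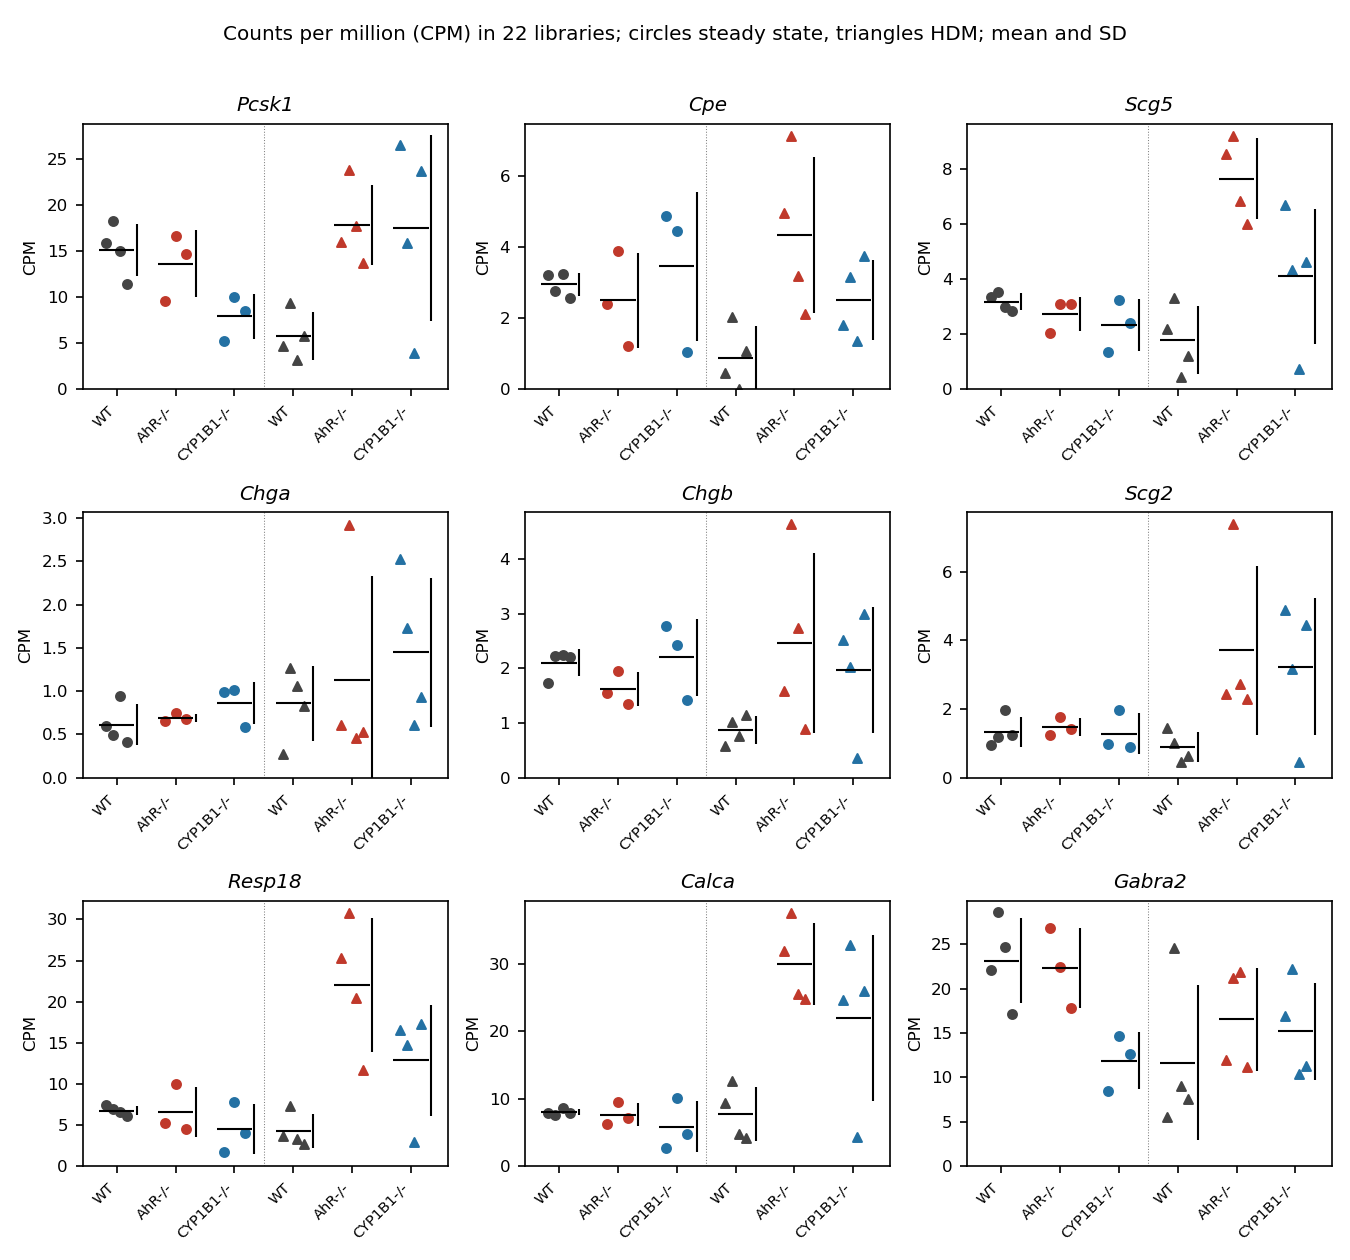
CPM of the 9 genes in each library, by genotype, with steady state (circles) left and HDM (triangles) right of the dotted line in each panel; horizontal lines are group means and vertical lines the mean ± SD, cut at 0. Calca in AhR-/- ECs went from 6.29 to 9.54 CPM at steady state to 24.7 to 37.6 CPM after HDM, while WT stayed between 4.23 and 12.7 CPM in both states.

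Calca encodes calcitonin and, by alternative splicing, CGRP. Calca (ENSMUSG00000030669) lies on chromosome 7 of GRCm38, at 114631478 to 114636357 on the minus strand. At steady state Calca was at 7.94, 7.65, 8.67 and 7.82 CPM in WT replicates 1 to 4, at 6.29, 9.54 and 7.14 CPM in AhR-/- replicates 1, 3 and 4, and at 2.77, 10.0 and 4.71 CPM in CYP1B1-/- replicates 2 to 4. After HDM it was at 9.42, 12.7, 4.72 and 4.23 CPM in WT replicates 1 to 4, at 32.0, 37.6, 25.5 and 24.7 CPM in AhR-/-, and at 24.7, 32.9, 4.28 and 25.95 CPM in CYP1B1-/-. All 4 AhR-/- libraries were above all WT libraries after HDM, and CYP1B1-/- replicate 3 stood apart from the other 3 of its group. Against WT, Calca in HDM-exposed AhR-/- ECs was 1.94 higher on the log2 scale (standard error, SE, 0.58), and the p of edgeR's quasi-likelihood F-test, adjusted by Benjamini and Hochberg's method over all genes, was 0.036. From steady state to HDM it rose by 1.97 on the log2 scale in AhR-/- ECs (SE 0.51, edgeR adjusted p of 0.00899, from the fit of all libraries) and by 1.88 in CYP1B1-/- ECs (SE 0.51, edgeR adjusted p of 0.00555). The CYP1B1-/- libraries took part in the choice of Resp18, which Calca followed closely, so the test in CYP1B1-/- is not independent of the choice. The change of -0.07 in WT (95% interval -0.96 to 0.82) did not pass, and it turned to 1.04 when the counts of 4 epithelial genes (Epcam, Krt8, Krt18 and Cdh1) served as library size. Reads were summed per gene, so the calcitonin and CGRP transcripts were not separated, and Calcb, the other CGRP gene, was a gene of its own in the tables.

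Scg5 encodes 7B2, the chaperone of the convertase PC2. It lies on chromosome 2 at 113776362 to 113829121, minus strand (ENSMUSG00000023236). Its steady-state levels were 3.34, 3.52, 2.98 and 2.85 CPM in WT, 2.04, 3.10 and 3.08 CPM in AhR-/- and 1.35, 3.25 and 2.42 CPM in CYP1B1-/- libraries. The HDM levels were 2.20, 3.298, 0.457 and 1.22 CPM in WT, 8.53, 9.19, 6.82 and 6.01 CPM in AhR-/-, and 6.67, 4.32, 0.755 and 4.63 CPM in CYP1B1-/- libraries. The AhR-/- libraries were again above every WT library after HDM. Scg5 rose by 2.13 on the log2 scale in this comparison (SE 0.68, edgeR adjusted p of 0.0428) and by 1.49 from steady state to HDM in AhR-/- ECs (SE 0.53, edgeR adjusted p of 0.0466). Its values of 0.76 for the state in CYP1B1-/- (95% interval -0.28 to 1.79) and of -0.87 in WT (95% interval -1.85 to 0.10) did not pass, and the latter was 0.21 with the epithelial genes as library size.

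Cpe encodes carboxypeptidase E, which removes the basic residues left by the convertases. It lies on chromosome 8 at 64592542 to 64693054, minus strand (ENSMUSG00000037852). Cpe was counted at 3.22, 2.78, 3.25 and 2.58 CPM in WT, at 2.40, 3.91 and 1.23 CPM in AhR-/- and at 4.89, 4.46 and 1.06 CPM in CYP1B1-/- libraries at steady state. After HDM it was at 0.448, 2.03, 0 and 1.09 CPM in WT, at 4.98, 7.13, 3.19 and 2.12 CPM in AhR-/- and at 1.80, 3.17, 1.36 and 3.75 CPM in CYP1B1-/- libraries. The 4 WT libraries after HDM lay below the 4 WT libraries at steady state and below the 4 AhR-/- libraries after HDM, although the value of 0 in WT replicate 3 allows up to 0.457 CPM, the worth of 3 counts there. Cpe fell by 1.87 on the log2 scale from steady state to HDM in WT ECs (SE 0.64, edgeR adjusted p of 0.0229), a call that was lost without WT HDM replicate 1 or 3, and by 0.68 with the epithelial genes as library size (edgeR adjusted p of 0.425). Between AhR-/- and WT after HDM the log2 fold change was 2.32 (SE 0.80, edgeR adjusted p of 0.0532), just short of the threshold.

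Pcsk1 encodes the convertase PC1/3, which makes the first cuts in many prohormones. The gene (ENSMUSG00000021587) spans 75089826 to 75134861 on the plus strand of chromosome 13. Pcsk1 was at 15.9, 18.3, 15.0 and 11.5 CPM in WT, at 9.64, 16.7 and 14.7 CPM in AhR-/- and at 5.25, 9.99 and 8.54 CPM in CYP1B1-/- libraries at steady state. In the HDM libraries Pcsk1 was at 4.71, 9.39, 3.20 and 5.83 CPM in WT, at 16.0, 23.9, 17.7 and 13.8 CPM in AhR-/- and at 26.5, 15.9, 3.98 and 23.8 CPM in CYP1B1-/- ECs. At steady state the CYP1B1-/- libraries were all below the WT libraries, with a log2 fold change of -1.02 (SE 0.27). After HDM the sign was opposite, 1.67 (SE 0.57), with overlapping libraries because of CYP1B1-/- replicate 3, and 2.04 (SE 0.42) without that library. These values took part in the choice of the gene and have no test. In AhR-/- ECs, which did not, Pcsk1 had a log2 fold change of 0.39 from steady state to HDM (95% interval -0.46 to 1.24, adjusted p = 0.572, edgeR).

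Resp18 encodes a granule protein of endocrine and neuroendocrine cells. The gene (ENSMUSG00000033061) spans 75272199 to 75278415 on the minus strand of chromosome 1. Resp18 was at 7.46, 6.98, 6.57 and 6.07 CPM in WT, at 5.27, 10.1 and 4.49 CPM in AhR-/- and at 1.77, 7.76 and 4.01 CPM in CYP1B1-/- libraries at steady state. The HDM libraries had 3.72, 7.36, 3.35 and 2.69 CPM in WT, 25.3, 30.8, 20.5 and 11.7 CPM in AhR-/- and 16.6, 14.7, 2.92 and 17.3 CPM in CYP1B1-/- ECs. Resp18 thus resembled Calca, with 4 high AhR-/- libraries and CYP1B1-/- replicate 3 apart from its group. It rose by 1.75 on the log2 scale from steady state to HDM in AhR-/- ECs (SE 0.52, edgeR adjusted p of 0.02). Against WT after HDM, the untested values were 2.39 (SE 0.58) for AhR-/- and 1.69 (SE 0.58) for CYP1B1-/- ECs, and at steady state the value for CYP1B1-/- was -0.67 (SE 0.40). An antisense gene, Gm28902, overlaps 40 exon bases of Resp18, 3.88% of its exons, and the libraries did not keep strand.

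Gabra2 encodes the alpha 2 subunit of the GABA-A receptor, a chloride channel, and is no enzyme or granule protein. The gene (ENSMUSG00000000560) spans 70957597 to 71095849 on the minus strand of chromosome 5. Its steady-state levels were 22.1, 28.6, 24.7 and 17.2 CPM in WT, 26.8, 22.4 and 17.8 CPM in AhR-/- and 8.44, 14.7 and 12.6 CPM in CYP1B1-/- libraries. After HDM Gabra2 was at 5.52, 24.6, 8.98 and 7.56 CPM in WT, at 12.0, 21.2, 21.8 and 11.1 CPM in AhR-/- and at 17.0, 22.2, 10.4 and 11.3 CPM in CYP1B1-/- libraries. The steady-state CYP1B1-/- libraries were below all WT libraries, by -1.05 on the log2 scale (SE 0.25), and below all AhR-/- libraries. After HDM the 3 genotypes overlapped, with untested values of 0.44 (SE 0.55) for AhR-/- and 0.41 (SE 0.55) for CYP1B1-/- against WT, and WT replicate 2 was far above the other 3 WT libraries. Without that library the values were 1.19 and 1.16, and with the hematopoietic covariate -0.20 and 0.15. The change with HDM in AhR-/- ECs was -0.45 (95% interval -1.24 to 0.34, adjusted p = 0.462, edgeR), and 0.40 with the epithelial genes as library size.

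The granins were Scg2, for secretogranin II (ENSMUSG00000050711, chromosome 1, 79434669 to 79440120, minus strand), Chgb, for chromogranin B (ENSMUSG00000027350, chromosome 2, 132781278 to 132795079, plus strand), and Chga, for chromogranin A (ENSMUSG00000021194, chromosome 12, 102554969 to 102565028, plus strand). Scg2 was at 0.955, 1.17, 1.964 and 1.24 CPM in WT, at 1.26, 1.78 and 1.41 CPM in AhR-/- and at 0.993, 1.98 and 0.884 CPM in CYP1B1-/- libraries at steady state. After HDM Scg2 was at 1.43, 1.02, 0.457 and 0.641 CPM in WT, at 2.44, 7.39, 2.73 and 2.30 CPM in AhR-/- and at 4.87, 3.17, 0.453 and 4.45 CPM in CYP1B1-/- libraries. All AhR-/- libraries were above WT after HDM, with a log2 fold change of 2.08 (SE 0.73, edgeR adjusted p of 0.0558), which did not pass. The same holds for the state in AhR-/- ECs, with 1.35 (SE 0.60, edgeR adjusted p of 0.116), and in CYP1B1-/- ECs, with 1.29 (SE 0.61, edgeR adjusted p of 0.113).

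Chgb was at 1.73, 2.22, 2.24 and 2.21 CPM in WT, at 1.56, 1.95 and 1.35 CPM in AhR-/- and at 2.77, 2.43 and 1.41 CPM in CYP1B1-/- libraries at steady state. Chgb after HDM was at 0.583, 1.02, 0.761 and 1.15 CPM in WT, at 1.58, 4.64, 2.73 and 0.884 CPM in AhR-/- and at 2.52, 2.02, 0.352 and 2.99 CPM in CYP1B1-/- libraries. The WT libraries after HDM were all below those at steady state, by -1.27 on the log2 scale (SE 0.54, edgeR adjusted p of 0.0658), which missed the threshold. For AhR-/- against WT after HDM the value was 1.45 (95% interval 0.03 to 2.88, adjusted p = 0.158, edgeR), with overlapping libraries.

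Chga was too low for a firm statement. At steady state Chga was at 0.597, 0.494, 0.948 and 0.414 CPM in WT, at 0.659, 0.747 and 0.677 CPM in AhR-/- and at 0.993, 1.01 and 0.589 CPM in CYP1B1-/- libraries. After HDM Chga was at 0.269, 1.27, 1.06 and 0.833 CPM in WT, at 0.609, 2.92, 0.455 and 0.530 CPM in AhR-/- and at 2.52, 1.73, 0.604 and 0.937 CPM in CYP1B1-/- libraries. The value of 0.455 CPM in AhR-/- replicate 3 is a single count. The log2 fold change between AhR-/- and WT after HDM was 0.50 (95% interval -1.11 to 2.12, adjusted p = 0.702, edgeR), and it turned to -0.64 without AhR-/- replicate 2.

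Read as a group, the comparison of AhR-/- with WT asks whether loss of the receptor alters ECs in each state. In naive mice 0 of the 6 genes passed in edgeR, with 0 at an unadjusted p under 0.05 and 0 in every other tool run, and 0% of all 15547 genes passed, with 263 at an unadjusted p under 0.05, 11 called by edgeR's likelihood ratio test, 12 by DESeq2 and 11 by limma voom. The log2 fold changes of the 9 genes lay between -0.39 and 0.16, with a median of -0.10 against -0.01 over all genes. The 9 include Pcsk1, Resp18 and Gabra2, so these values are a description. Scg5, the most precisely measured of the 6, had an interval of -0.85 to 0.35, and the intervals of Cpe and Chga reached from -1.21 to 0.70 and from -0.67 to 0.99.

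After HDM, 2 of the 6 genes tested, Calca and Scg5, were higher in AhR-/- ECs, where 22.1% of all genes tested were called and 9.22% were called higher. A total of 4 of the 6 had an unadjusted p under 0.05, as 5492 of all 14161 genes had. The median of the 9 genes was 1.94 against -0.00 over all genes. It is a description, since WT libraries took part in the choice of Pcsk1, Resp18 and Gabra2. The AhR-/- libraries were all above the WT libraries for Calca, Scg5, Cpe, Scg2, Pcsk1 and Resp18, 6 of the 9 genes, and 9.6% of all genes were parted in that direction. Pcsk1 and Resp18 among these have WT libraries that took part in the choice of the genes. With 1 library left out, 0 of the 6 genes passed without AhR-/- replicate 1, 3 or 4 or without WT replicate 3 or 4, fits in which 0 of all genes passed where 3129 had. Also 0 of 6 passed without WT replicate 1, among 885 calls over all genes, and 1 (Calca) without AhR-/- replicate 2, among 4137, while the log2 fold changes of Calca and Scg5 over all settings tried stayed between 1.44 and 2.35 and between 1.72 and 2.64.

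The HDM libraries also differed in other cell types. Ptprc, which encodes CD45 and should be absent after the sort, was at 161, 99.2, 27.8 and 14.8 CPM in AhR-/- replicates 1 to 4, at 436, 209, 637 and 365 CPM in WT and at 179, 26.2, 614 and 669 CPM in CYP1B1-/- libraries. The sum of 12 hematopoietic markers, all counted in every WT and CYP1B1-/- library and 11 of them in every AhR-/- library, ranged from 570 to 3790 CPM in AhR-/-, from 4060 to 13300 CPM in WT and from 1420 to 12700 CPM in CYP1B1-/- ECs after HDM, against 60.2 to 369 CPM in the steady-state libraries. The sum of the neuroendocrine markers given above was higher in all AhR-/- than in all WT libraries. Sums of other epithelial markers also had a higher median in AhR-/- than in WT libraries, with ranges that overlapped. For 5 alveolar type 1 markers the sum was 2890 to 16900 CPM in AhR-/- (median 10300), 515 to 4000 CPM in WT (2780) and 368 to 3610 CPM in CYP1B1-/- libraries (1930). For 6 alveolar type 2 markers it was 7330 to 70400 CPM (median 20500), 3790 to 23000 CPM (9220) and 5190 to 36200 CPM (15800) in the same order. The sum of 3 club cell markers was 1620 to 7870 CPM (median 4820), 192 to 1730 CPM (650) and 272 to 4840 CPM (1000), and that of 4 ciliated cell markers 85.7 to 177 CPM (median 144), 53.0 to 105 CPM (69) and 49.6 to 117 CPM (74.5). Outside the epithelium, 10 mesenchymal markers summed to 81.8 to 124 CPM (median 112), 33.6 to 86.3 CPM (44.5) and 33.4 to 301 CPM (110). With the hematopoietic score as a covariate, 0 of the 6 genes passed between AhR-/- and WT after HDM, at log2 fold changes of 1.44 for Calca and 1.72 for Scg5 (adjusted p = 0.567 and 0.57, edgeR). The hematopoietic sums of AhR-/- and WT libraries did not overlap, so this fit can hardly part these cells from the genotype. With the epithelial genes as library size, Calca passed, at 1.58 (adjusted p = 0.0417, edgeR), and Scg5 was at 1.77 (adjusted p = 0.0535, edgeR), while the median of all genes moved to -0.41 and the share of calls that were higher from 41.7% to 16.2%. Without the Y-linked AhR-/- replicates 3 and 4, 0 of the 6 passed, at 2.12 for Calca and 2.29 for Scg5 (adjusted p = 0.202 for each, edgeR). The part of the hematopoietic and other cells in the difference was not tested.

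**Figure D3:**
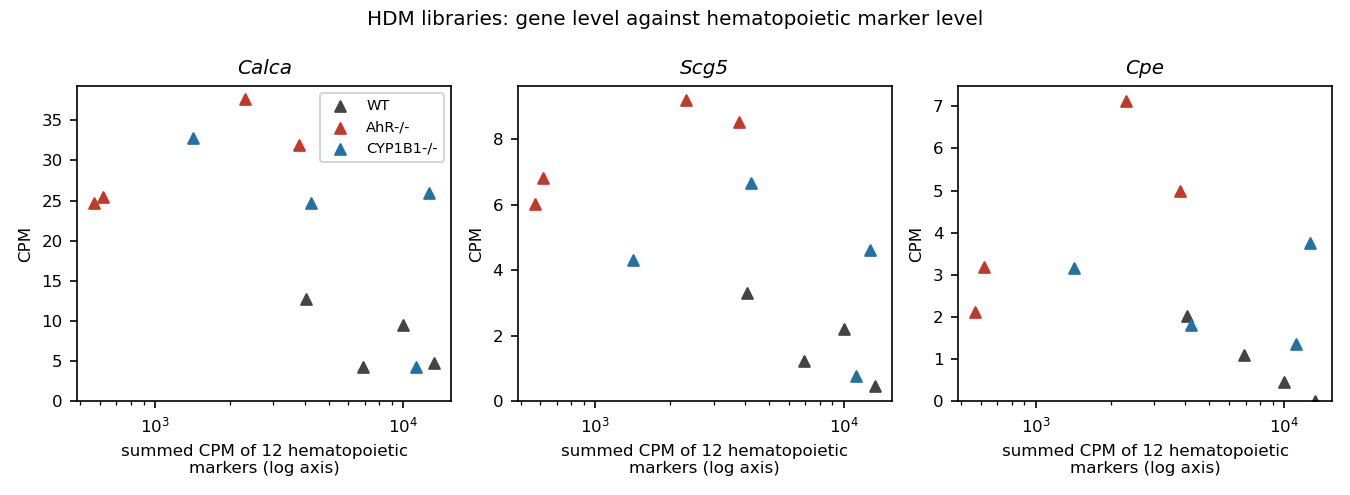
CPM of Calca, Scg5 and Cpe in the 12 HDM libraries against the summed CPM of 12 hematopoietic markers on a log axis, in grey for WT, red for AhR-/- and blue for CYP1B1-/-. AhR-/- libraries lie at 570 to 3790 CPM of markers and WT at 4060 to 13300. CYP1B1-/- replicates 3 and 4 have 4.28 and 25.95 CPM of Calca at 11200 and 12700 CPM of markers.

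The comparison of CYP1B1-/- with WT asks the same question for the enzyme. It chose the genes, so its values are listed without a test. At steady state Pcsk1 and Gabra2 were parted from WT with all libraries lower, which holds for 1.15% of all genes, and the 9 log2 fold changes lay between -1.05 and 0.43 with a median of -0.52. Scg5 was at -0.52 (SE 0.31), Calca at -0.54 (0.33), Scg2 at -0.12 (0.38), Chgb at 0.00 (0.31), Cpe at 0.15 (0.48) and Chga at 0.43 (0.41). CYP1B1-/- replicate 2 was the lowest of its group for Pcsk1, Gabra2, Resp18, Calca and Scg5, and without it Pcsk1 was at -0.81, Gabra2 at -0.86, Resp18 at -0.30 and Calca at -0.22. After HDM all 9 genes had a higher fitted mean than in WT, from 0.41 for Gabra2 to 1.94 for Scg2, with overlapping libraries for each, where 0.424% of all genes had all libraries higher. Without CYP1B1-/- replicate 3, which had 11200 CPM of hematopoietic markers, the values were 1.963 for Calca, 2.07 for Resp18, 2.35 for Scg2 and 1.73 for Scg5. CYP1B1-/- replicate 4, with 12700 CPM of these markers, was above every WT library for the same 4 genes. The part of hematopoietic cells in these values was not tested.

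**Figure D4:**
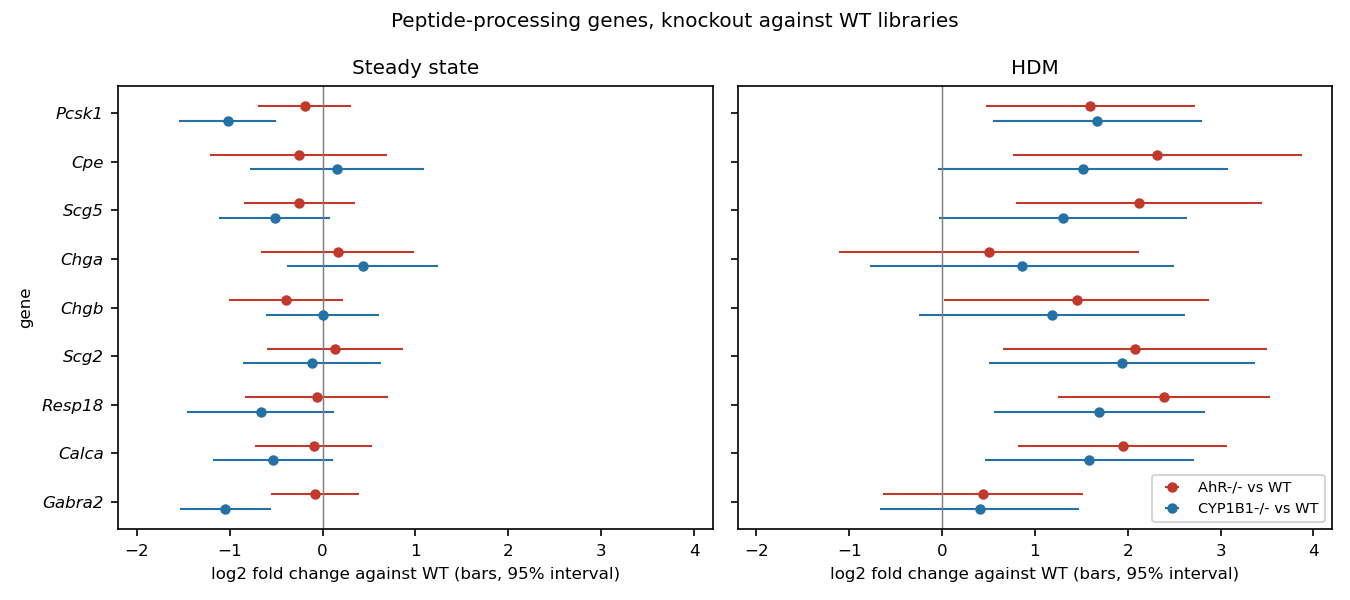
Log2 fold change against WT of the 9 genes in AhR-/- (red) and CYP1B1-/- (blue) ECs, at steady state (left) and after HDM (right); points are edgeR estimates and bars their 95% intervals. At steady state Pcsk1 (-1.02) and Gabra2 (-1.05) in CYP1B1-/- ECs lie farthest from 0, and after HDM the points of both genotypes lie between 0.41 and 2.39. Both genotypes are set against the same WT libraries.

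Between the knockouts, Gabra2 was higher in all AhR-/- than in all CYP1B1-/- libraries at steady state (0.96 on the log2 scale, standard error 0.26), which 5.76% of all genes were, and Pcsk1 was at 0.83 (SE 0.28) with overlapping libraries. After HDM the 9 values lay between -0.36 for Chga and 0.82 for Scg5, and the libraries overlapped for each gene, while 5.33% of all genes had all AhR-/- libraries higher and 1.63% all of them lower. These are untested descriptions as well.

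For the state, the 9 genes had a median log2 fold change of -0.87 in WT, 0.84 in AhR-/- and 0.76 in CYP1B1-/- ECs, against -0.11, -0.05 and -0.02 over all genes. The medians in WT and CYP1B1-/- are descriptions, since libraries of both took part in the choice of Pcsk1, Resp18 and Gabra2. In WT 1 of 6 genes tested was called (Cpe, lower), where 19.4% of all genes were called lower, and Cpe, Chgb and Pcsk1 had all HDM libraries below all steady-state libraries, as 21.2% of all genes did. Cpe in WT was at -1.59 without HDM replicate 1 and at -1.50 without HDM replicate 3 (edgeR adjusted p of 0.0836 and 0.0629), and at -0.68 with the epithelial genes as library size (edgeR adjusted p of 0.425). In AhR-/- 3 of all 9 genes were called higher (Calca, Resp18 and Scg5), where 10.6% of all genes were, and 4 genes, with Scg2, had all HDM libraries above all steady-state libraries, as 12.7% of all genes did. The call of Scg5 was lost without any 1 of the 3 steady-state libraries (edgeR adjusted p of 0.106 to 0.162), without HDM replicate 1 or 2 (0.0959 and 0.0814), and with the hematopoietic covariate (0.165), and that of Resp18 without replicate 1 or 4 of these (0.0853 and 0.106). In CYP1B1-/- 1 of 6 was called higher (Calca), where 15.5% of all genes were, and with CYP1B1-/- replicate 3 left out 2 were, Calca at 2.25 (adjusted p = 0.000309, edgeR) and Scg2 at 1.70 (adjusted p = 0.0149, edgeR). The hematopoietic score as a covariate left Calca in AhR-/- (2.51, edgeR adjusted p of 0.0387) and no call in the other 2 genotypes. The marker sums of all HDM libraries (570 to 13300 CPM) lay above those at steady state (60.2 to 369 CPM). This fit can therefore hardly part these cells from the state. The epithelial genes as library size moved the median of all genes to 1.04 in WT, 0.78 in AhR-/- and 1.34 in CYP1B1-/- ECs, and the medians of the 9 genes to 0.21, 1.68 and 2.13. The share of calls that were higher went from 49.6% to 91.5% in WT, from 51.1% to 95.6% in AhR-/- and from 46.5% to 93.5% in CYP1B1-/- with that library size.

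Whether the state acted differently in AhR-/- and WT ECs was tested as an interaction over all 22 libraries. None of the 6 genes passed in edgeR's quasi-likelihood test, as 0% of all genes did, and 5 of 6 had an unadjusted p under 0.05, as 3050 of all 16639 genes had. The estimates were 2.71 for Cpe (SE 0.89), 2.36 for Scg5 (0.72) and 2.05 for Calca (0.67), each with an adjusted p of 0.149 in edgeR. Scg2 was at 1.89 (0.83), Chgb at 1.87 (0.78) and Chga at 0.42 (0.91). DESeq2 called Calca, Scg5 and Cpe, among 1221 genes in all, and so did limma voom, among 5042. For CYP1B1-/-, where the contrast took part in the choice, the untested interaction values ran from 0.27 for Chga to 2.56 for Pcsk1, with Resp18 at 2.21, Calca at 1.955 and Gabra2 at 1.36.

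The genes most alike to the 3 that defined the group were searched among the 16638 other genes of the fit over both states, by Pearson's r of log2 CPM over 22 libraries. Resp18 was most alike to Calca (r = 0.951, Spearman's rho = 0.935), then Ccn3 (r = 0.927, rho = 0.901) and Zcchc12 (r = 0.906, rho = 0.914). Pcsk1 was most alike to Spock3 (r = 0.919, rho = 0.894), then Scg5 (r = 0.886, rho = 0.861) and Snap25 (r = 0.864, rho = 0.817). Gabra2 went with other genes, Vstm2a (r = 0.864, rho = 0.832), Scn3a (r = 0.838, rho = 0.872) and Acsm1 (r = 0.831, rho = 0.822). Of the 3 genes, Resp18 and Pcsk1 thus had another of the 9 among their closest, and Gabra2 had none. Within groups, after the group means were taken out, r was 0.92 for Resp18 with Calca, 0.911 for Pcsk1 with Scg5 and at most 0.586 for Gabra2 with any of the other 8 genes, which it had with Resp18. All these points share libraries, depth and cell makeup, so the values describe likeness only.

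The wider pathway was read from a list of 124 further genes of granules, convertases, peptide trimming, hormones, neuroendocrine transcription factors and markers, exocytosis, GABA signalling and CGRP receptors. Between AhR-/- and WT after HDM, 79 passed the filter, 7 were called higher and 5 lower, and the median was 0.50 against -0.00 over all genes. Ddc, the aromatic amino acid decarboxylase of monoamine synthesis, was 2.86 higher on the log2 scale (adjusted p = 0.0261), the granule phosphatase-like protein gene Ptprn 1.97 (0.0346) and Cpd, a carboxypeptidase, 1.35 (0.0343), all from edgeR. Lower were Ramp3, a subunit of CGRP-family receptors, at -3.32 (adjusted p = 0.0261, edgeR), Eno2, a glycolytic enzyme used as a neuroendocrine marker, at -2.57 (0.0261), Qpct, which modifies peptide ends, at -2.63 (0.0304) and Rab3d, a vesicle GTPase, at -0.98 (0.0296). Of the 4 granins and granule proteins kept by the filter 1 was higher and 0 lower, with a median of 1.22, of 8 peptide trimming genes 3 were higher and 2 lower (median 0.59), of 13 neuroendocrine markers 1 was higher and 1 lower (median 0.98), and of 17 exocytosis genes 1 was higher and 1 lower (median 0.79). Among 7 proprotein convertases (median 0.25) and 15 GABA signalling genes (median -0.10) 0 passed in edgeR. Of these, 2 and 0 had an unadjusted p under 0.05, as 5492 of all 14161 genes had. Over all genes 9.22% were called higher and 12.9% lower. These 3129 calls became 0 with the hematopoietic covariate and without AhR-/- replicates 3 and 4 together. They also became 0 without AhR-/- replicate 1, 3 or 4 or without WT replicate 3 or 4. The calls of the list were lost in the same fits.

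For the state, the same list had 9 genes called higher and 27 lower of 106 kept in WT, where 19% and 19.4% of all genes were. The counts were 11 and 8 in AhR-/- (10.6% and 10.1% of all genes) and 9 and 16 in CYP1B1-/- ECs (15.5% and 17.9%). The median sum of the 12 hematopoietic markers went from 119 to 8470 CPM in WT between the states, and with the hematopoietic score as covariate 6 genes were called over all genes in WT, against 6391 without it, 460 against 3435 in AhR-/- and 91 against 5560 in CYP1B1-/-. In WT the genes of lowest p were Eno2 at 3.82, Qpct at 7.33, Ramp3 at 6.33, Ramp1, the CGRP receptor subunit, at 2.68 and Gabbr1, a GABA-B receptor subunit, at 2.54, all higher, and the vesicle fusion gene Vamp2 at -2.03, the calcitonin receptor gene Calcr at -3.06 and the convertase gene Pcsk2 at -1.38, all lower. In AhR-/- ECs the POU factor gene Pou4f1 was at -3.16, Vamp2 at -1.48, the site-1 protease gene Mbtps1 at -1.29 and Rab3d at -1.29, while Qpct was at 4.76, Ramp1 at 2.39, the vesicle GTPase gene Rab27b at 2.79 and Gabbr1 at 1.92. The list in CYP1B1-/- ECs was led by Vamp2 at -2.01, Mbtps1 at -1.28 and Ddc at -2.68 among the lower genes and by Eno2 at 3.16, Qpct at 6.02, Ramp3 at 5.19, Ramp1 at 2.31 and Rab27a at 2.66 among the higher ones. Vamp2, Qpct and Ramp1 were among the genes of lowest p in all 3 genotypes. In the comparisons of AhR-/- with WT at steady state, CYP1B1-/- with WT in both states, AhR-/- with CYP1B1-/- in both states and the interactions, 0 genes of the list passed in edgeR. At an unadjusted p under 0.05 there were 3 of 97 for AhR-/- and 10 of 97 for CYP1B1-/- against WT at steady state (263 and 901 of all 15547 genes), 8 of 97 between the knockouts at steady state (657 of all), 3 of 79 for CYP1B1-/- against WT and 11 of 79 between the knockouts after HDM (233 and 4234 of 14161), and 19 and 9 of 106 for the interactions of AhR-/- and CYP1B1-/- (3050 and 382 of 16639).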

How the data were processed

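RNA of sorted lung ECs was sequenced after full-length cDNA amplification and tagmentation, which does not keep strand. The authors demultiplexed with bcl2fastq 2.19.1, trimmed with bbduk, mapped to mm10 with GSNAP and counted reads per gene with featureCounts 2.0.0. The deposited values are raw counts per gene, without normalization.

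Symbols were matched to Ensembl identifiers of GENCODE M21, and all 9 genes and all 124 pathway genes were found. The members and lists were chosen with earlier results of these data known. Of protein-coding genes, those passing filterByExpr (minimum count 10, minimum total 15, by group) were normalized with TMM and tested with edgeR 4.0.16 (glmQLFit, robust, and glmQLFTest) in R 4.3.3. This left 15547 genes at steady state, 14161 after HDM and 16639 over both tables, with all 9 members among them. Genotypes were compared within a table, and states and interactions over both. Genes were called at an adjusted p (Benjamini-Hochberg) of at most 0.05. The SE of an edgeR estimate was taken as its size over the root of the F statistic, and 95% intervals were built from it. CPM and FPKM use the TMM sizes of the fit over 22 libraries, FPKM with GENCODE exon length.

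Named genes are the 9 members, pathway genes called in a comparison (up to 8 by lowest p), and the 3 genes of highest r with Pcsk1, Resp18 and Gabra2. A pathway gene that meets this rule is not reported here. Promoter windows are RefSeq's (GRCm38.p6). The alternatives were the likelihood ratio test, DESeq2 1.42.0, voom of limma 3.58.1, RLE normalization, no filter, all genes, the compared groups only, the replicate number as a block, a hematopoietic covariate, omission of libraries with Y-linked reads and of each library, and, chosen after the data were seen, epithelial genes as library size and some of these fits in further comparisons. The quasi-likelihood test was tested on simulated data with 200 changed genes.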

Additional observations from a re-analysis of the deposited data

Results flagged for a closer look

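In groups of 4 libraries, 5 of 36 sets (9 genes in 4 groups) had a library far from the others by Dixon's test on log2 CPM, where chance at 1 in 20 gives 1.8. Resp18 and Calca in CYP1B1-/- HDM replicate 3 had log2 CPM of 1.58 and 2.12, or 2.92 and 4.28 CPM, against 14.7 to 17.3 CPM and 24.7 to 32.9 CPM in the other 3 libraries. Chga and Scg2 in AhR-/- HDM replicate 2 had log2 CPM of 1.58 and 2.9, or 2.92 and 7.39 CPM, against 0.455 to 0.609 CPM and 2.30 to 2.73 CPM. Chgb in WT steady-state replicate 1 had a log2 CPM of 0.85, or 1.73 CPM, against 2.21 to 2.24 CPM.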

How the results depend on the processing

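For AhR-/- against WT after HDM, the 2 genes called of 6 became 4 with the likelihood ratio test, DESeq2 and RLE normalization, 1 with the epithelial library size, and 0 with the hematopoietic covariate or without the libraries with Y-linked reads; with single libraries left out the count ranged from 0 to 3. For the state in WT, the 1 call became 2 with voom and 0 with the covariate or the epithelial library size (0 to 1 with libraries left out; 0 without WT HDM replicate 1 or 3). In AhR-/- the 3 calls became 1 with the covariate (1 to 3; 1 without steady-state replicate 1 or 4), and in CYP1B1-/- the 1 call became 2 with DESeq2, 0 with the covariate and 4 with the epithelial library size (1 to 2). The interaction went from 0 to 3 with DESeq2 and voom (0 to 0). The count at steady state stayed 0 in all of these. Over all genes, the 3129 calls between AhR-/- and WT after HDM became 0 with the covariate and 0 without the libraries with Y-linked reads, and the covariate gave 6 calls against 6391 for the state in WT, 460 against 3435 in AhR-/- and 91 against 5560 in CYP1B1-/-; the epithelial library size gave 6254 in AhR-/- and 9890 in CYP1B1-/-. The hematopoietic marker sums parted the states, and AhR-/- from WT after HDM, so calls lost with the covariate do not show what these cells add. The cause of these shifts was not tested. Depth was low for Cpe, with 0 counts in WT HDM replicate 3, and for Chga, with 1 count in AhR-/- HDM replicate 3.

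The numbers were not taken to pair the libraries, since in no compared pair of groups did all same-numbered libraries correlate above 0.1: r was -0.399 to 0.419 for AhR-/- and WT after HDM (1 of 4 above), 0.027 to 0.809 for CYP1B1-/- and WT after HDM (3 of 4) and -0.089 to 0.098 for the states in WT (0 of 4). With the replicate number as a block, the 2 calls for AhR-/- against WT after HDM became 0, among 1 call over all genes, and the interaction of Chga turned to -0.0093. For the state in AhR-/- it left 2 of 3 calls, without Scg5 (edgeR adjusted p of 0.095), and the counts of the other comparisons stayed as they were.

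Of the tested genes, those whose log2 fold change turned sign were uncalled in the quasi-likelihood test as reported, although voom called Scg5 for the state in WT. With the epithelial library size, the state in WT gave 0.21 for Scg5, 0.50 for Scg2 and 1.04 for Calca, in AhR-/- 0.40 for Gabra2, and in CYP1B1-/- 0.88 for Cpe and 1.17 for Chgb. Calca in WT also turned to 0.021 with DESeq2, 0.057 with all genes and 0.63 with the covariate, Cpe in CYP1B1-/- to 0.10 and the interaction of Chga to -0.21 with voom. With single libraries left out, the ranges that crossed 0 were, at steady state between AhR-/- and WT, -0.73 to 0.070 for Cpe, -0.033 to 0.44 for Chga, -0.023 to 0.38 for Scg2 and -0.29 to 0.014 for Calca. After HDM that of Chga was -0.64 to 0.79. For the state they were -0.32 to 0.15 for Calca in WT, -0.25 to 1.13 for Chga in AhR-/-, and -0.90 to 0.063 for Cpe and -0.56 to 0.22 for Chgb in CYP1B1-/-, and for the interaction -0.74 to 0.75 for Chga. Untested values also turned, among them the state in WT for Resp18 (from -0.72 to 0.41) and Gabra2 (from -1.03 to 0.16) with the epithelial library size, and AhR-/- against WT at steady state for Resp18 (-0.50 to 0.15 over all settings) and Gabra2 (-0.25 to 0.063).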
